A study of Homo sapiens with 7 samples.

Results

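The G1 cyclins, the kinases they activate and the inhibitors of these kinases were examined in RNA-Seq data of esophageal squamous cell carcinoma cells. The members were 10 genes chosen by name, out of 56234 genes to which transcripts could be assigned: CCND2, CCND3, CCNE1 and CCNE2 (cyclins), CDK4 and CDK6 (kinases), and CDKN1A, CDKN1B, CDKN2A and CDKN2B (inhibitors). TE5 and KYSE140 are established lines of this tumor. TE5 cells carried a scramble control shRNA or an shRNA against TP63, SOX2 or the long non-coding RNA CCAT1 (4 libraries). KYSE140 cells carried scramble, TP63 or SOX2 shRNA (3 libraries). Each shRNA had 1 library in each line, so no replicates stand behind a contrast inside a line. The knockdown libraries of a line shared 1 lane, and the scramble library came from another lane (for TE5, from another flow cell). Lane and silencing thus cannot be told apart in any difference from scramble. Only differences between the knockdown libraries of a line lie within 1 lane.

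D-type cyclins bind CDK4 and CDK6 in early G1 phase, and E-type cyclins bind CDK2 later in G1. Both kinds of complex phosphorylate the retinoblastoma protein, which then releases E2F factors that switch on genes for DNA synthesis. The INK4 proteins p16INK4a (from CDKN2A) and p15INK4b (from CDKN2B) bind CDK4 and CDK6 alone, whereas p21 (CDKN1A) and p27 (CDKN1B) act on complexes of cyclin and kinase. CDKN2A also encodes ARF, which acts through MDM2 and p53, from another first exon. Loss of CDKN2A and gain of CCND1 are well known in squamous cell carcinoma of the esophagus.

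CDKN2A gives different products depending on which exons are joined, so the bases around 3 of its exon junctions are shown. Positions are on GRCh37, minus strand of chromosome 9. CDKN2A-201 is the p16INK4a transcript and joins exon 1α (21974677 to 21974856) to exon 2 (21970901 to 21971207). CDKN2A-214 is an ARF-type transcript and joins exon 1β (21994138 to 21994391) to the same exon 2. CDKN2A-204 has no annotated coding sequence and joins an exon at 21993881 to 21994067 to a last exon at 21989339 to 21989954, both between exon 1β and exon 1α. Each sequence runs 5′ to 3′ and holds 30 bases, with the upstream exon in lower case and the downstream exon in capitals.
CDKN2A-201: cggaggccgatccagGTCATGATGATGGGC
CDKN2A-214: ttcctagaagaccagGTCATGATGATGGGC
CDKN2A-204: ccacctcagaagtcaAGACGCTGCGGATCC
The p16INK4a and ARF junctions have the same 15 bases downstream, and CDKN2A-204 does not contain that exon.

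Each transcript came with its estimated count and its TPM, a level per length that can be compared between genes, both as deposited by the authors. The estimated counts summed to between 68532611 and 98036494 per library. Transcripts were summed to genes, and the sums were scaled between libraries by edgeR's TMM factors. They are called normalized counts here. The targets of the shRNAs served as a check. TP63 was at 26627 normalized counts in TE5 scramble and 6762 in TE5 shTP63, and at 47837 in KYSE140 scramble and 12493 in KYSE140 shTP63. SOX2 was at 11916 in TE5 scramble and 4715 in TE5 shSOX2. In KYSE140 it was at 28579 in scramble and 22121 in shSOX2, a log2 fold change of only -0.37. SOX2 was also lower in TE5 shTP63, at 8013, a log2 fold change of -0.57. In KYSE140 shTP63 it was at 29868, a log2 fold change of 0.06. CCAT1 itself is not reported here, so its silencing was not checked. The 10 squamous epithelial markers summed to between 765.1 and 1593 TPM in TE5 and between 9826 and 20648 TPM in KYSE140. Among them KRT5 lay between 200.7 and 701.7 TPM, KRT15 between 69.4 and 98.4 and KRT14 between 0.202 and 0.546 in TE5. Simple epithelial markers (KRT8, KRT18, KRT19 and EPCAM) summed to between 2492 and 3569 TPM in TE5 and between 2008 and 2487 in KYSE140. Fibroblast markers summed to at most 44.8 TPM and immune markers to at most 1.86 TPM in any library.

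Levels of the 10 genes were first compared per length. CDK4 had the highest TPM of the members in both scramble libraries, 278.0 in TE5 and 307.8 in KYSE140, above 98.6% and 98.7% of detected genes. CDKN1A came next, with 190.3 TPM in TE5 and 140.9 in KYSE140. In TE5 scramble they were followed by CCND3 (93.5 TPM), CCND2 (34.7), CDK6 (30.4), CDKN1B (29.7), CCNE2 (17.7), CDKN2B (13.5), CCNE1 (9.99) and CDKN2A (5.95). In KYSE140 scramble the order was CDKN1B (56.1 TPM), CCND2 (30.3), CCND3 (24.6), CDK6 (23.2), CCNE1 (19.5) and CCNE2 (12.3), with CDKN2A and CDKN2B listed at 0. Over the 4 TE5 libraries the ranges of neighbours in this order did not overlap between CDKN1A and CCND3, between CCND3 and CCND2, and between CDKN2B and CCNE1. All other neighbours overlapped, so that their order in TE5 was within the variation between libraries. Over the 3 KYSE140 libraries CCND3 and CDK6 overlapped, as did CCNE1 and CCNE2. Each library is a bulk of cells, in which fewer cells with a transcript and less of it per cell cannot be told apart.

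**Figure D1:**
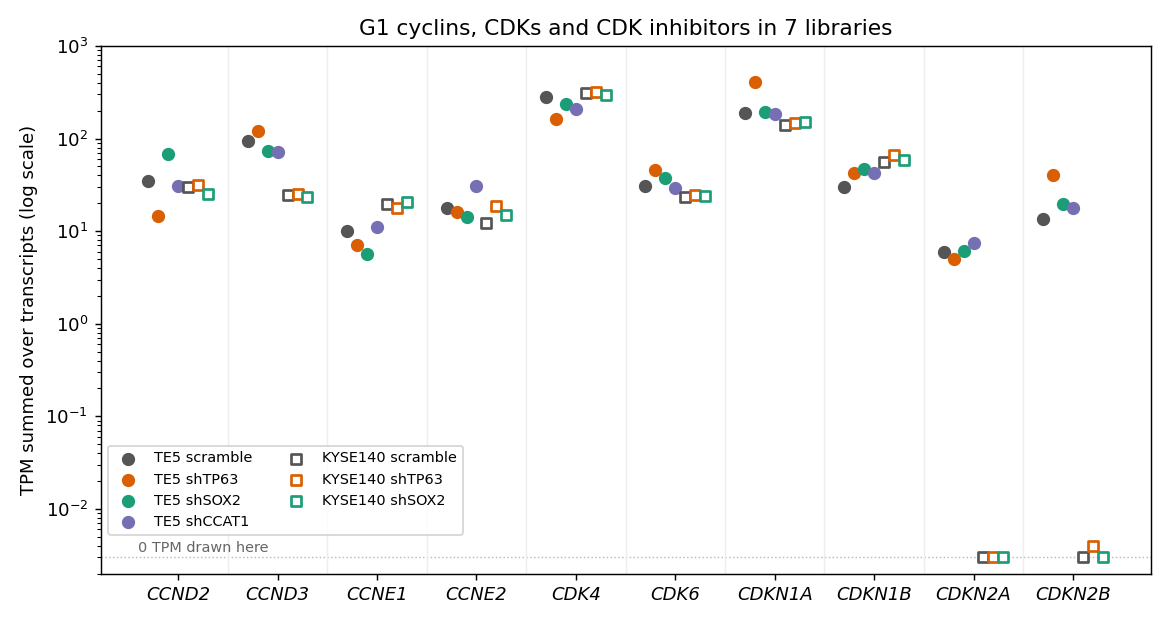
TPM summed over all transcripts of each member (log axis) in the 4 TE5 libraries (filled circles) and the 3 KYSE140 libraries (open squares), with 1 point per library and 0 TPM drawn at the dotted line. CDK4 and CDKN1A stand highest in both lines, and CDKN2A and CDKN2B are at or next to 0 in KYSE140.

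Across the lines, 6 of the 10 members had CPM values (normalized counts scaled to library size) that did not overlap between the 4 TE5 and the 3 KYSE140 libraries, beside 53.5% of all genes. CCND3 and both INK4 genes were higher in TE5. CDK4, CCNE1 and CDKN1B were higher in KYSE140. CCND3 lay between 82.1 and 134.2 CPM in TE5 and between 36.9 and 39.1 in KYSE140. CCNE1 lay between 6.08 and 11.3 in TE5 and between 19.6 and 27.1 in KYSE140. With a share this close to that of all genes, the number of members that separate the lines says nothing particular about them.

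Each knockdown library was then compared with the scramble library of its line, as log2((shRNA + 1)/(scramble + 1)) of normalized counts, in genes that reached 10 counts in either library. Intervals are 95% intervals that cover counting error only. Upon TP63 silencing in TE5, all 10 members passed this filter and 3 were past 2-fold, beside 20.5% of all genes. CDKN1A and CDKN2B were higher, beside 14.8% of all genes, and CCND2 was lower, beside 5.61%. Upon SOX2 silencing in TE5, 0 of 10 were past 2-fold, beside 11.3% of all genes. Upon CCAT1 silencing in TE5, CCNE2 alone was past 2-fold, beside 17.9% of all genes. In KYSE140, 8 members passed the filter and 0 were past 2-fold upon TP63 or upon SOX2 silencing, beside 13.3% of all genes in each comparison. The median log2 fold change of the members that passed lay between -0.015 and 0.19 over the 5 comparisons, and that of all genes between -0.007 and 0.066.

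**Figure D2:**
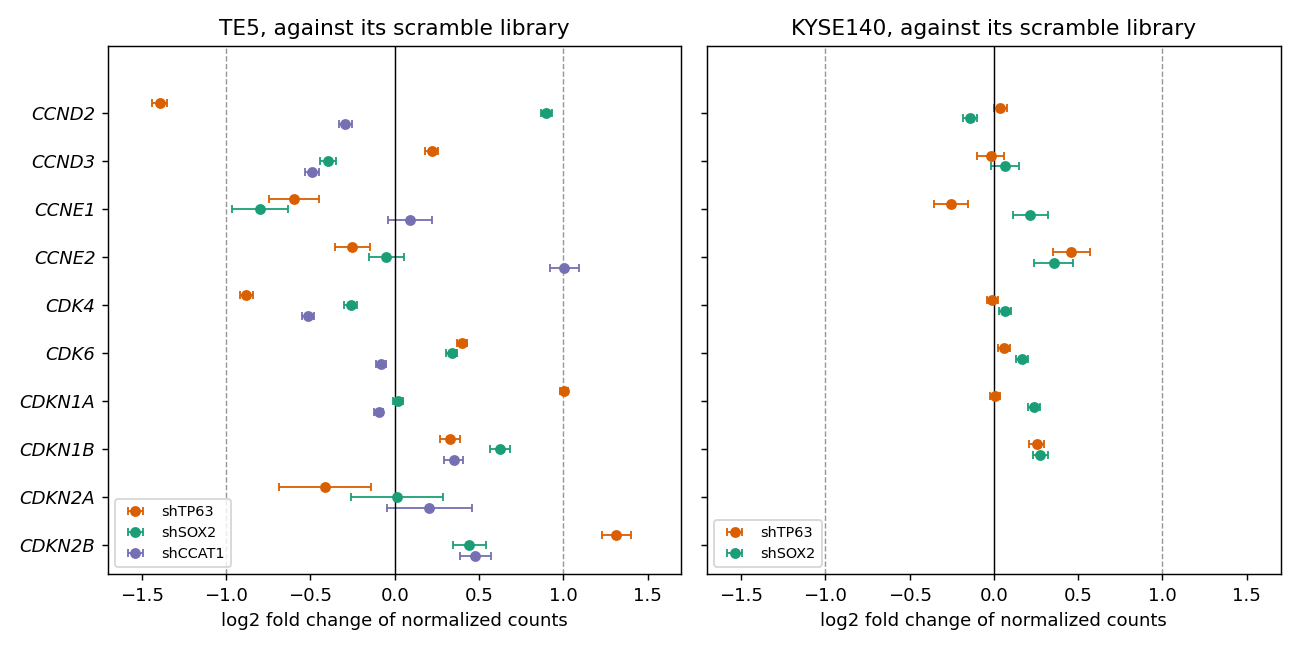
Log2 fold change of normalized counts of each member in each knockdown library against the scramble library of its line, in TE5 (left) and KYSE140 (right). Bars are 95% counting intervals without replicate error, dashed lines mark 2-fold, and members under 10 counts in both libraries are not drawn. In TE5 the values run from -1.39 (CCND2 upon TP63 silencing) to 1.31 (CDKN2B upon TP63 silencing), and in KYSE140 from -0.25 to 0.46.

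CCND2 (ENSG00000118971; chromosome 12, 4378937 to 4414519, plus strand) encodes cyclin D2, a partner of CDK4 and CDK6. Its normalized counts in TE5 were 12072 with scramble, 4595 with shTP63, 22491 with shSOX2 and 9856 with shCCAT1. The shTP63 and shSOX2 libraries of TE5 thus lay on opposite sides of scramble, with log2 fold changes of -1.39 (95% interval -1.44 to -1.35) and 0.90 (0.87 to 0.93). These libraries came from 1 lane, and within it CCND2 was lower with shTP63 than with shSOX2 by -2.29 on the log2 scale (-2.33 to -2.25). In KYSE140 the counts were 11910 with scramble, 12225 with shTP63 and 10787 with shSOX2. The log2 fold changes there were 0.04 and -0.14. The only protein-coding transcript of the gene, CCND2-201, had nearly all of these counts, 11599 in TE5 scramble.

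Of the 8 members with at least 100 counts in every library, CCND2 had the largest mean absolute log2 fold change over the 5 knockdown libraries, 0.55. The 3 genes with the nearest pattern among 12147 genes were FEZ1, PDGFA and NPRL3, at Euclidean distances of 0.68, 0.73 and 0.74 over the 5 log2 fold changes. FEZ1 was at -1.37 upon TP63 silencing and 0.22 upon SOX2 silencing in TE5. PDGFA was at -0.87 and 0.54, and NPRL3 at -1.19 and 0.20. In each of the 3 the value upon SOX2 silencing in TE5 was smaller than that of CCND2.

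CCND3 (ENSG00000112576; chromosome 6, 41902672 to 42018095, minus strand) encodes cyclin D3. Its normalized counts in TE5 were 9188 with scramble, 10702 with shTP63, 6985 with shSOX2 and 6544 with shCCAT1, and in KYSE140 2979, 2940 and 3119 with scramble, shTP63 and shSOX2. The log2 fold change was 0.22 with shTP63, -0.40 with shSOX2 and -0.49 with shCCAT1 in TE5, and -0.02 and 0.07 in KYSE140. Every TE5 library was above every KYSE140 library. The minor coding transcript CCND3-205 had 131.9 estimated counts in TE5 scramble, 651.4 with shTP63, 165.6 with shSOX2 and 409.9 with shCCAT1. Estimated counts are not scaled between libraries. The main transcript CCND3-203 had 7630 in TE5 scramble and 11484 in TE5 shTP63, a log2 fold change of 0.17 after scaling. Of the short sequence words compared between transcripts, CCND3-205 has none of its own within the gene. Its counts thus rest on how the estimation divided shared reads.

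CCNE1 (ENSG00000105173; chromosome 19, 30302898 to 30315219, plus strand) encodes cyclin E1, an activator of CDK2. Its normalized counts were 845 in TE5 scramble, 558 with shTP63, 485 with shSOX2 and 900 with shCCAT1, and 1864, 1562 and 2164 in KYSE140 scramble, shTP63 and shSOX2. In TE5 the log2 fold change was -0.60 (-0.74 to -0.45) upon TP63 silencing and -0.80 (-0.97 to -0.63) upon SOX2 silencing. In KYSE140 it was -0.25 (-0.36 to -0.15) and 0.22 (0.11 to 0.32). The shTP63 libraries of both lines thus lay below scramble, and the shSOX2 library lay below it in TE5 and above it in KYSE140. This difference between the lines was not tested. Its 31-base words occur in no other gene of the files.

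The transcripts of CCNE1 had different patterns. CCNE1-203 was at 5.77 TPM in TE5 scramble and 2.32 TPM with shSOX2, whereas CCNE1-201 was at 2.66 and 2.23 TPM. Taking the most abundant coding transcript alone, CCNE1-203, the log2 fold change upon SOX2 silencing in TE5 was -1.29, past 2-fold. In TE5 shCCAT1, CCNE1-203 was at 8.50 TPM and CCNE1-201 at 1.38 TPM, so that CCNE1-203 held 75.8% of the counts of the gene there and 58.9% in scramble. CCNE1-203 has no 31-base word of its own within the gene, so these shares rest on how the estimation divided shared reads.

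CCNE2 (ENSG00000175305; chromosome 8, 95891998 to 95908906, minus strand) encodes cyclin E2. Its normalized counts were 1550 in TE5 scramble, 1303 with shTP63, 1497 with shSOX2 and 3115 with shCCAT1, and 1386, 1906 and 1774 in KYSE140 scramble, shTP63 and shSOX2. The shCCAT1 library was the highest of the 7, with a log2 fold change of 1.01 (0.92 to 1.09). With size factors of DESeq2 this value was 0.98, and from TPM it was 0.79, so that it passed 2-fold only under some scalings. In KYSE140 the log2 fold changes were 0.46 (0.35 to 0.57) upon TP63 and 0.36 (0.24 to 0.47) upon SOX2 silencing.

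The estimated count of CCNE2-201, not scaled between libraries, was 873.5 in TE5 scramble and 3116 in TE5 shCCAT1. For the next transcript, CCNE2-202, it was 418.0 and 566.2. In TPM these were 6.22 and 18.2 for CCNE2-201 and 6.39 and 7.09 for CCNE2-202. After scaling, the log2 fold change of CCNE2-201 was 1.44. CCNE2-201 has no 31-base word of its own within the gene, so its values rest on how the estimation divided shared reads. Of the 31-base words of CCNE2, 36.0% also occur in INTS8, the gene that overlaps its end on the opposite strand, and for CCNE2-201 the share was 56.5%. INTS8, named after its values were seen, was at 4789 normalized counts in TE5 scramble and 5342 in TE5 shCCAT1, a log2 fold change of 0.16. No source used here states that strand was used in the counting, and without it reads of the overlap cannot be told apart.

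CDK4 (ENSG00000135446; chromosome 12, 58141510 to 58149796, minus strand) encodes a kinase activated by D-type cyclins. Its normalized counts in TE5 were 13553 with scramble, 7363 with shTP63, 11305 with shSOX2 and 9494 with shCCAT1. All 3 TE5 knockdown libraries lay below scramble, with log2 fold changes of -0.88 (-0.92 to -0.84), -0.26 (-0.30 to -0.22) and -0.51 (-0.55 to -0.48). Within the lane of these 3 libraries, shTP63 was lower than shSOX2 by -0.62 on the log2 scale (-0.66 to -0.58) and lower than shCCAT1 by -0.37 (-0.41 to -0.33). In KYSE140 the counts were 16801 with scramble, 16704 with shTP63 and 17592 with shSOX2. There the log2 fold changes were -0.01 and 0.07, and the second was -0.03 when scaled by library totals alone.

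Of the 31-base words of CDK4, 38.8% also occur in TSPAN31, which overlaps the end of CDK4 on the opposite strand, and 39.5% in any other gene. TSPAN31 was at 1631 normalized counts in TE5 scramble, 2142 with shTP63, 1812 with shSOX2 and 1516 with shCCAT1. It was thus above scramble with shTP63 and shSOX2, where CDK4 was below it, and both were below scramble with shCCAT1. Single transcripts of CDK4 differed in this share. CDK4-204, with 11.2% of its words in other genes, was at 101.3 TPM in TE5 scramble, 52.0 with shTP63, 85.7 with shSOX2 and 82.2 with shCCAT1. CDK4-202, with 61.1% in its reference sequence, was at 93.2, 50.6, 77.0 and 63.6 TPM. CDK4-201, with 54.0%, was at 31.7, 24.0, 23.6 and 26.3 TPM. The 3 main transcripts were thus lower than scramble in each of the 3 TE5 knockdown libraries. From CDK4-204 alone, the log2 fold change upon TP63 silencing in TE5 was -1.12. Of the words of CDK4-204, 3.52% occur in no other transcript of the gene, and 5.12% of those of CDK4-202. CDK4-201 has no word of its own. All these shares are those of reference sequences, which can differ from the transcripts as counted. CDK4-202 was counted with 1000 bases, too few for the 1620 words of its reference sequence. Its 61.1% and 5.12% thus do not describe the transcript as counted, and the shares of the whole gene may differ too. By the reference shares, the levels of CDK4-204 and CDK4-201 rest largely on how the estimation divided shared reads. For CDK4-202 this was not determined.

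CDK6 (ENSG00000105810; chromosome 7, 92234235 to 92465887, minus strand) encodes the other kinase of D-type cyclins. Its normalized counts were 15983, 21072, 20197 and 15090 in TE5 scramble, shTP63, shSOX2 and shCCAT1, and 15314, 15950 and 17190 in KYSE140 scramble, shTP63 and shSOX2. Its log2 fold changes lay between -0.08 and 0.40 over the 5 comparisons, with 0.40 upon TP63 and 0.34 upon SOX2 silencing in TE5. CDK6 and CDK4 thus lay on opposite sides of scramble in these 2 libraries.

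**Figure D3:**
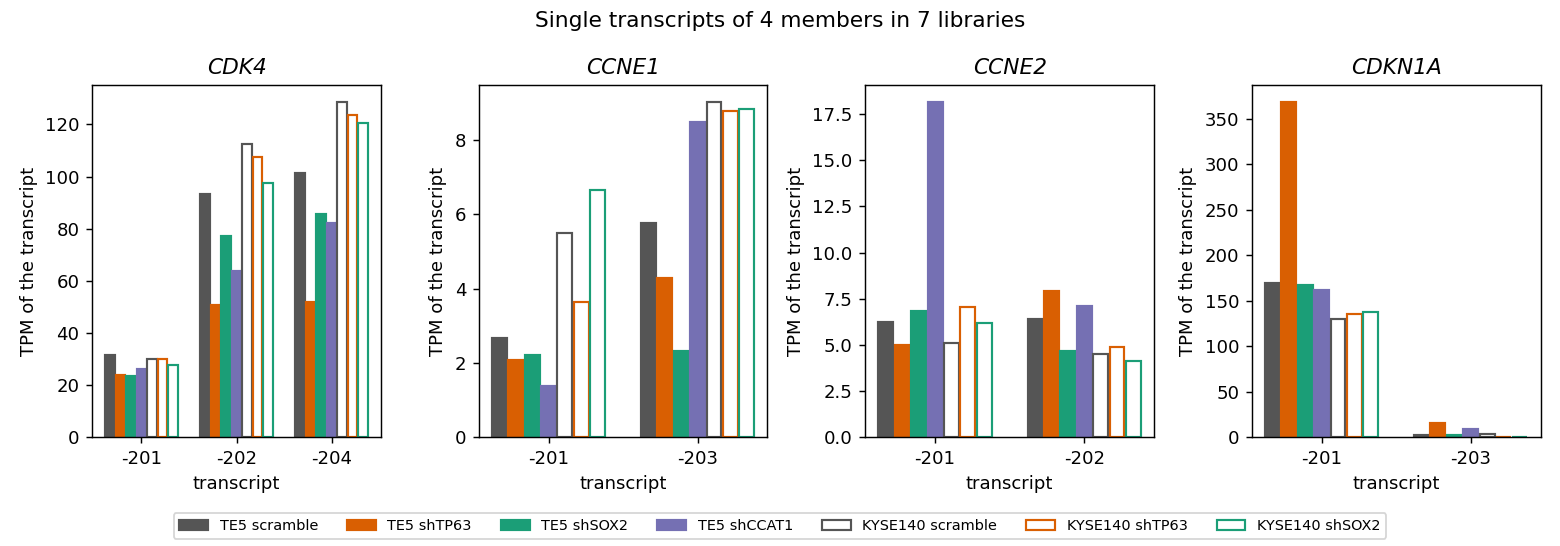
TPM of single transcripts of CDK4, CCNE1, CCNE2 and CDKN1A in each of the 7 libraries, 1 bar per library, each panel with its own axis from 0. CDK4-202 and CDK4-204 are lowest in TE5 shTP63, CCNE2-201 is highest in TE5 shCCAT1 (18.2 TPM), and CDKN1A-201 is highest in TE5 shTP63 (369.0 TPM).

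CDKN1A (ENSG00000124762; chromosome 6, 36644237 to 36655114, plus strand) encodes p21, a target of p53 that inhibits complexes of cyclin and CDK. Its normalized counts in TE5 were 20204 with scramble, 40529 with shTP63, 20483 with shSOX2 and 18931 with shCCAT1. The shTP63 library stood apart from the other 3, with a log2 fold change of 1.00 (0.98 to 1.03) against scramble and, in the same lane, 0.98 (0.96 to 1.01) against shSOX2 and 1.10 (1.08 to 1.12) against shCCAT1. With size factors of DESeq2 the value against scramble was 0.99, and from CDKN1A-201 alone 0.97, just under 2-fold. In KYSE140 the counts were 17528, 17611 and 20672 with scramble, shTP63 and shSOX2, with log2 fold changes of 0.01 and 0.24. CDKN1A-201 held between 91.7% and 98.2% of the counts of the gene in every library. A minor transcript, CDKN1A-203, was at 250.2 estimated counts in TE5 scramble, 2252 with shTP63, 312.1 with shSOX2 and 1307 with shCCAT1. In KYSE140 it was at 364.5 with scramble, 6.20 with shTP63 and 47.9 with shSOX2, so that shTP63 was above scramble in TE5 and below it in KYSE140. Of its 31-base words, 0.18% occur in no other transcript of the gene, so these counts rest on how the estimation divided shared reads. CDKN1A shares no 31-base word with another gene.

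CDKN1B (ENSG00000111276; chromosome 12, 12838432 to 12875303, plus strand) encodes p27. Its normalized counts were 4144, 5201, 6387 and 5279 in TE5 scramble, shTP63, shSOX2 and shCCAT1, and 8749, 10437 and 10597 in KYSE140 scramble, shTP63 and shSOX2. CDKN1B was above scramble in each of the 5 knockdown libraries. In TE5 the log2 fold change was 0.33 with shTP63, 0.62 with shSOX2 and 0.35 with shCCAT1, and in KYSE140 it was 0.25 with shTP63 and 0.28 with shSOX2. The counting intervals of all 5 lay above 0. The comparisons within a line share their scramble library and the lanes differ, so that a property of the scramble libraries cannot be told apart from an effect of the shRNAs.

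CDKN2B (ENSG00000147883; chromosome 9, 22002902 to 22009304, minus strand) encodes p15INK4b. Its normalized counts were 1468 in TE5 scramble, 3653 with shTP63, 1996 with shSOX2 and 2046 with shCCAT1. The shTP63 library was the highest, with a log2 fold change of 1.31 (1.23 to 1.40), and the other 2 knockdown libraries stood at 0.44 (0.34 to 0.54) and 0.48 (0.38 to 0.57). Within the lane, CDKN2B was higher with shTP63 than with shSOX2 by 0.87 (0.80 to 0.95) and than with shCCAT1 by 0.84 (0.77 to 0.91). The coding transcript CDKN2B-201 was at 5.02 TPM in TE5 scramble and 13.0 with shTP63, and the retained-intron transcript CDKN2B-203 at 5.15 and 18.7 TPM. In KYSE140 scramble and shSOX2 CDKN2B had 0 counts, and in shTP63 it had 1 count. The TE5 scramble library was at least 359.7-fold higher than the KYSE140 scramble library, taking 3 counts per library as the floor.

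CDKN2A (ENSG00000147889; chromosome 9, 21967751 to 21995300, minus strand) was the member with the lowest level in TE5 scramble. Its normalized counts were 232 in TE5 scramble, 174 with shTP63, 234 with shSOX2 and 267 with shCCAT1. Its log2 fold changes in TE5 were -0.41 (-0.69 to -0.14), 0.01 (-0.26 to 0.29) and 0.21 (-0.04 to 0.46). The p16INK4a transcript CDKN2A-201 had 0 estimated counts in all 7 libraries. Most counts of the gene in TE5 belonged to the transcript without coding sequence, CDKN2A-204, with 178, 203, 182 and 316 estimated counts in scramble, shTP63, shSOX2 and shCCAT1. The ARF-type transcript CDKN2A-210 had 28.1, 14.0, 43.4 and 17.1, and CDKN2A-214 had 8.30 in scramble and 0 in the other 3. For CDKN2A-210, 30.9% of the words occur in another gene and 2.65% in no other transcript of the gene. For CDKN2A-214 these shares are 21.7% and 0%. The counts of both thus rest largely on how the estimation divided shared reads. Of the words of CDKN2A-204, 79.9% occur in no other transcript of the gene and 2.78% in another gene, so that its reads could be placed largely by sequence. The counts summed to the gene are thus mostly not those of an INK4 or ARF messenger RNA.

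In KYSE140, CDKN2A had 0 counts in all 3 libraries, and each TE5 library was at least 42.5-fold higher on the same floor. Genes on either side of it were measured in the same KYSE140 libraries. MTAP was at 7887, 8747 and 5777 normalized counts in KYSE140 scramble, shTP63 and shSOX2, above the 1971 to 3144 of the TE5 libraries. CDKN2B-AS1, an antisense RNA whose transcripts span CDKN2B, was at 322, 489 and 411 in KYSE140 and between 106 and 152 in TE5. Of the genes farther out, KLHL9 was between 13573 and 14911 in KYSE140 and between 2548 and 2644 in TE5. DMRTA1 was at 76, 106 and 71 in KYSE140 and between 82 and 334 in TE5. ELAVL2 was at 1, 17 and 21 in KYSE140 and between 932 and 1422 in TE5. The neighbours thus differed among themselves: MTAP, CDKN2B-AS1 and KLHL9 were higher in KYSE140, ELAVL2 was lower, and the ranges of DMRTA1 overlapped.

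**Figure D4:**
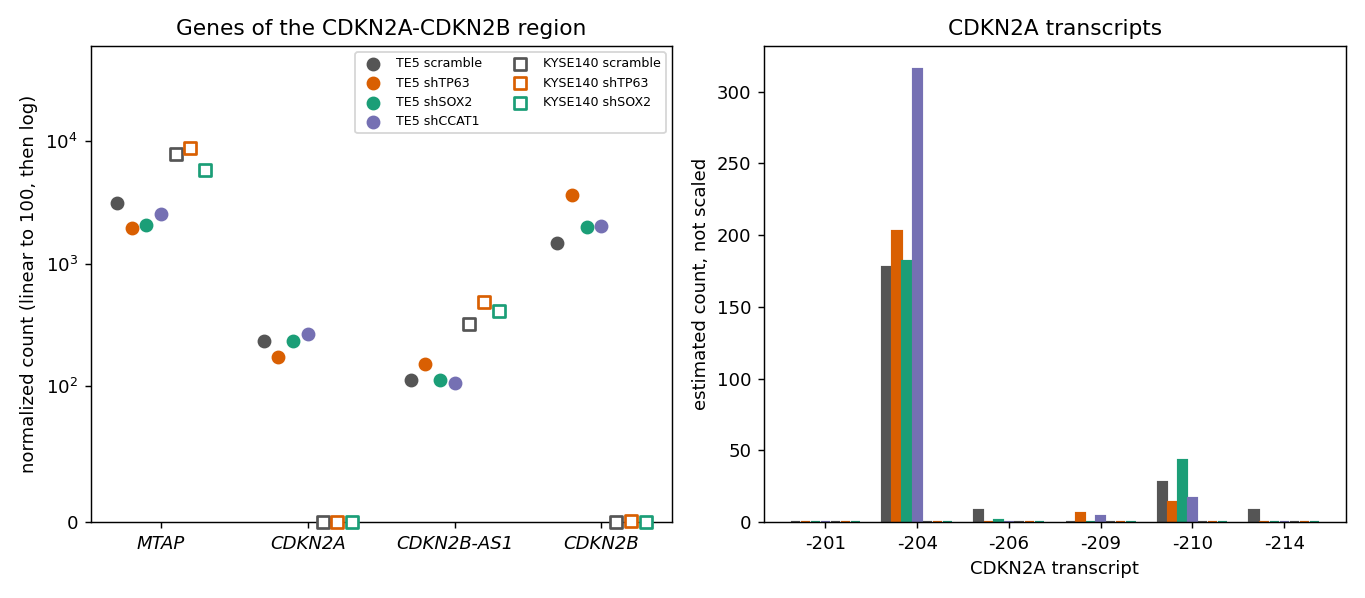
Left, normalized counts of MTAP, CDKN2A, CDKN2B-AS1 and CDKN2B (axis linear to 100, then logarithmic) in the 4 TE5 libraries (filled circles) and the 3 KYSE140 libraries (open squares). Right, estimated counts of 6 CDKN2A transcripts in the same colors, with all KYSE140 bars at 0, CDKN2A-201 at 0 in every library and CDKN2A-204 between 178 and 316 in TE5.

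The lines were then combined as replicates of a condition in edgeR's quasi-likelihood test, with cell line as a covariate and 6 libraries (2 residual degrees of freedom). Upon TP63 silencing, 0 of the 10 members passed a Benjamini-Hochberg adjusted p of 0.1, beside 0.939% of all genes, and 1 had an unadjusted p under 0.05, beside 14.4%. That member was CDKN2B, with a log2 fold change of 1.37 (SE 0.28, adjusted p = 0.119, edgeR quasi-likelihood test). It had reads in TE5 alone apart from 1 count and passed the filter through TE5, so this value is that of 1 TE5 library against another, with no replicate of the difference. DESeq2 called CDKN2B alone, with an adjusted p of 0.0113, on the same libraries, beside 12.5% of the genes it gave an adjusted p. Where a share of all genes is set beside DESeq2 calls below, it is likewise taken over the genes with a DESeq2 adjusted p. CDK4 was at -0.43 (SE 0.20, adjusted p = 0.391), CDKN1A at 0.55 (SE 0.28, adjusted p = 0.430) and CCND2 at -0.54 (SE 0.48, adjusted p = 0.662) in the edgeR test. For CCND2 the values of the single lines were -1.39 and 0.04.

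The calls upon TP63 silencing rested on single libraries. Without KYSE140 shTP63, where TE5 shTP63 is the only library of its condition and is assumed to vary like the others, edgeR called 4 members at adjusted p-values of 0.0063 (CCND2, -1.69), 0.0066 (CDKN1A, 1.05), 0.020 (CDKN2B, 1.31) and 0.033 (CDK4, -0.81). Without TE5 shSOX2 or without KYSE140 shSOX2 it called CDKN2B. Without TE5 shTP63, CCND2 was at 0.25 and CDKN1A at -0.068, the opposite sign. The values of CCND2 and CDKN1A upon TP63 silencing were thus those of TE5.

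Upon SOX2 silencing, edgeR called 0 of 10 members, beside 0.145% of all genes. DESeq2 called 0, beside 4.75% of the genes it gave an adjusted p. CDKN1B alone had an unadjusted p under 0.05, at 0.43 (SE 0.15, adjusted p = 0.479), beside 8.94% of all genes. CCND2 was at 0.47 (SE 0.48, adjusted p = 0.832) and CCNE1 at -0.30 (SE 0.26, adjusted p = 0.796) in the edgeR test. Without KYSE140 shSOX2, whose SOX2 level was closest to scramble, CCND2 was called at 1.22 (edgeR adjusted p = 0.092). Without TE5 shSOX2 it was at -0.58 and CCNE1 at 0.091.

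The shTP63 and shSOX2 libraries of a line share a lane, and were also compared directly. Here edgeR called 0 of 10 members, beside 4.22% of all genes. DESeq2 called 0, beside 17.2% of the genes it gave an adjusted p. CDKN2B alone had an unadjusted p under 0.05, higher with shTP63 at 0.93 (SE 0.28, adjusted p = 0.155), beside 17.5% of all genes. It had reads in TE5 alone apart from 1 count, so its values in this contrast also have no replicate of the difference. CCND2 was at -1.01 (SE 0.50, adjusted p = 0.358) and CDKN1A at 0.44 (SE 0.28, adjusted p = 0.485). Without TE5 shTP63 CCND2 was at -0.098, and without TE5 shSOX2 at -0.11. Without KYSE140 shTP63, CCND2, CDK4, CDKN1A and CDKN2B were called, and without KYSE140 shSOX2, CCND2 was called at -1.90 (edgeR adjusted p = 0.0020).

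For CCAT1 silencing, the fit of all 7 libraries called 0 of 10 members, beside 0.00376% of all genes. CCNE2 alone had an unadjusted p under 0.05, beside 8.41% of all genes, with a log2 fold change of 1.18 (SE 0.26, adjusted p = 0.346, edgeR quasi-likelihood test). DESeq2 called CCNE2 alone, at an adjusted p of 0.024, beside 1.84% of all genes. The edgeR test also called it without TE5 shTP63, TE5 shSOX2, KYSE140 shTP63 or KYSE140 shSOX2 (adjusted p = 0.0046 to 0.070). CDK4 was at -0.33 (SE 0.27, adjusted p = 0.760). All of these calls rest on 1 shCCAT1 library, which is assumed to vary like the others, and the scramble library of TE5 was not from its flow cell. Members not given here had edgeR adjusted p-values from 0.431 to 0.996 over the 4 contrasts.

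A list of 35 other genes of G1 control (further cyclins, kinases, inhibitors, the retinoblastoma family, E2F and DP factors and the SKP2 and LIN complexes) was set beside the members. All 35 passed the filter in every comparison. Past 2-fold there were 2 lower upon TP63 silencing in TE5 (RB1 and E2F8), 2 lower upon SOX2 silencing in TE5 (CDK2 and E2F5), 1 lower upon SOX2 silencing in KYSE140 (E2F5) and 0 in the other 2 comparisons, with 0 higher in any. The shares of all genes past 2-fold were 20.5%, 11.3% and 17.9% upon TP63, SOX2 and CCAT1 silencing in TE5 and 13.3% in both KYSE140 comparisons. Their median log2 fold change was -0.31 and -0.21 upon TP63 and SOX2 silencing in TE5, 0.02 upon CCAT1 silencing, and 0.03 and -0.08 in KYSE140. In the edgeR fits 0 of 35 were called upon TP63, SOX2 or CCAT1 silencing at the adjusted p of 0.1, with 5, 8 and 0 at an unadjusted p under 0.05, beside 14.4%, 8.94% and 8.41% of all genes. DESeq2 called 4 upon TP63 silencing (CDK7, E2F3, MDM2 and RB1), 2 upon SOX2 silencing (CDK2 and E2F5) and 0 upon CCAT1 silencing, beside 12.5%, 4.75% and 1.84% of all genes.

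CDK2, the kinase of cyclin E, was at 9591 normalized counts in TE5 scramble, 7070 with shTP63, 4035 with shSOX2 and 9540 with shCCAT1, and at 9200, 10702 and 5775 in KYSE140 scramble, shTP63 and shSOX2. It was the lowest with shSOX2 in both lines, and was the 1 gene of the list that edgeR called between TP63 and SOX2 silencing, at 0.88 (SE 0.18, edgeR adjusted p = 0.067), beside 4.22% of all genes. DESeq2 called 10 of the 35 there, beside 17.2% of the genes it gave an adjusted p. RB1, the substrate of these kinases, was at 8017, 3477, 5214 and 7070 in TE5 and at 11220, 7559 and 7621 in KYSE140, below scramble in every knockdown library (edgeR -0.87, adjusted p = 0.119 upon TP63 silencing). CCND1, cyclin D1, was at 15615, 21826, 28555 and 12476 in TE5 and at 31187, 23713 and 44802 in KYSE140, highest with shSOX2 in both lines (edgeR 0.66, adjusted p = 0.456 upon SOX2 silencing). E2F5, an E2F factor that acts mainly as a repressor, was at 490 and 242 in TE5 and 413 and 140 in KYSE140 scramble and shSOX2, the only gene of the list past 2-fold in both lines upon 1 shRNA (edgeR -1.28, adjusted p = 0.302).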

How the data were processed

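RNA-Seq of 7 libraries was used. For each transcript of the hg19 Ensembl annotation, the authors deposited kallisto's estimated count, not scaled between libraries, and its TPM value. The kallisto version is not given in the sources used here. The labels also name DESeq2. KYSE140 shCCAT1, KYSE70 and ChIP-seq were not used here.

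Transcripts were summed to genes with GENCODE 44 mapped to GRCh37. Of 196354 transcripts, 182863 were assigned, with 93.4% to 93.7% of counts. The other 13491 were left out, some of which could belong to members, and were kept as single features in 1 alternative, chosen after the data were seen. Counts were rounded for edgeR 4.0.16 (glmQLFit, glmQLFTest, TMM, filterByExpr, R 4.3.3) and DESeq2 1.42.0. No fit was made of 2 single libraries. The p-values treat the lines as replicates. CDKN2A and CDKN2B had at most 1 count in a KYSE140 library, so no second line stands behind their p-values. The same holds for CCAT1 silencing, with 1 library in TE5. Words of 31 bases were compared between reference transcripts, on both strands. Some reference sequences differ from the transcripts as counted, such as CDK4-202 (1000 bases as counted, 1620 words in the reference). Shares of words describe the reference sequences and need not hold for the transcripts as counted.

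The script was tested on simulated data for TP63 silencing, with 200 changed genes among 23582 at the estimated dispersion of 0.0457: 46% of genes changed 2-fold and 99% of those changed 4-fold were called. For CCAT1 silencing (25403 genes) these shares were 12% and 87%. In each of these runs 11 unchanged genes were called. All genes had a common dispersion, changes were equal in the lines and there was no lane effect. Changed genes were drawn from those with higher expected counts. The shares thus need not hold for the data, where the lines differed.

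The members and gene lists were chosen with earlier results of these data known. The genes named are the 10 members, the shRNA targets, fixed neighbours on the chromosome, the 3 genes nearest in pattern to the member with the largest mean change, and, of 35 other G1/S genes, CCND1, CDK2, RB1 and those past 2-fold in both lines upon 1 shRNA or called. E2F8, the genes that DESeq2 alone called, INTS8 and the minor transcripts were named after their values were seen. Python 3.11.15, pandas 2.3.3, scipy 1.17.1 and matplotlib 3.10.9 were used.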

Additional observations from a re-analysis of the deposited data

Results flagged for a closer look

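Members whose log2 fold changes had opposite signs in the 2 lines, each with a counting interval that leaves out 0, were singled out. Upon TP63 silencing this was CCNE2, at -0.25 in TE5 and 0.46 in KYSE140. Upon SOX2 silencing these were CCND2 (0.90 in TE5 and -0.14 in KYSE140), CCNE1 (-0.80 and 0.22) and CDK4 (-0.26 and 0.066). The sign of CDK4 in KYSE140 depends on the scaling, with -0.033 when scaled by library totals alone and -0.078 from TPM. With 1 library per condition in each line, the difference between the lines was not tested, and the counting intervals do not cover variation between cultures. SOX2 itself was at -1.34 in TE5 and -0.37 in KYSE140 in the same libraries.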

How the results depend on the processing

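With 1 library per condition and line, no fold change within a line has a replicate error, and depth limits only CDKN2A and CDKN2B in KYSE140. The 46 log2 fold changes of members gave 322 alternative values, of which 240 stayed within their counting interval and 0 of those past 2-fold changed sign. Upon SOX2 silencing in KYSE140, CDK4 turned from 0.066 to -0.033 with library totals alone and to -0.078 from TPM. CCND3 turned there from 0.066 to -0.0335 and -0.079. Upon CCAT1 silencing in TE5, CDK6 turned from -0.083 to 0.090 and CDKN1A from -0.094 to 0.079 with library totals alone. Other small values also turned. Members past 2-fold upon TP63 silencing in TE5 were 3, but 2 with size factors of DESeq2 and 4 from the most abundant coding transcript. The number of members past 2-fold upon CCAT1 silencing in TE5 was 1, but 0 with size factors of DESeq2, 0 from TPM and 2 from the most abundant coding transcript. Upon SOX2 silencing in TE5 it was 0, but 1 from the most abundant coding transcript (CCNE1). From that transcript, CDKN2A was past 2-fold upon TP63 silencing (-1.35) and CCAT1 silencing (-1.05) in TE5, where the gene was at -0.41 and 0.21. These 2 values come from CDKN2A-210, with only 28.1 estimated counts in scramble, 14.0 with shTP63 and 17.1 with shCCAT1. Its counts rest largely on how the estimation divided shared reads. Members called were 0 in each edgeR fit. Upon TP63 silencing there was 1 with DESeq2 and 1 without a filter (CDKN2B), and between 0 and 4 leaving out 1 library. For TP63 against SOX2 silencing there was 1 without a filter (CCND2), and between 0 and 4 leaving out 1 library. Upon SOX2 silencing there were between 0 and 1 leaving out 1 library. Upon CCAT1 silencing there was 1 with DESeq2 and 1 without a filter (CCNE2), and between 0 and 1 leaving out 1 library. Keeping the unassigned transcripts or another scaling left these counts at 0, as did 7 libraries and the length offset in the 3 contrasts of 6 libraries (not run for CCAT1 silencing). Leaving out each library in turn, signs turned for 6 of the 12 edgeR values given above. Upon TP63 silencing CCND2 ran from -1.69 to 0.25 and CDKN1A from -0.068 to 1.05. Upon SOX2 silencing CCND2 ran from -0.58 to 1.22 and CCNE1 from -0.71 to 0.091. For TP63 against SOX2 silencing CDKN1A ran from -0.17 to 0.92 and CCND2, without a turned sign, from -2.06 to -0.098, and upon CCAT1 silencing CDK4 ran from -0.50 to 0.082. Each sign turned without a TE5 library. The causes were not tested.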
